A study of Mus musculus with 2 samples.

Results

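The 10 genes described here are Cdh1, Cdh2, Epcam, Vim, Snai1, Zeb2, Esrp1, Cldn6, Cldn7 and Ctnnb1, which mark the change of cells from an epithelial to a mesenchymal state. They were chosen by symbol from the 32285 genes of the deposited tables, and all 10 were found. They were followed in mouse gastruloids, small balls of cultured stem cells that begin to lay out a body axis. One library came from R1 embryonic stem cells labelled wild type (WT) and one from cells labelled Sp5/8 double knockout (dko), in which the Wnt-responsive transcription factor genes Sp5 and Sp8 are said to be inactivated. In both, about 300 cells per aggregate were grown in serum-free N2B27 medium, received 3 µM CHIR, a GSK3 inhibitor that switches on Wnt signalling, at day 2 for 12 hours, and were pooled and collected at day 2.5. Each genotype has 1 library of pooled aggregates. How many knockout clones were used and which stretch of each gene was removed are not given in the sources used here.

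Epithelial cells are held together by E-cadherin, the product of Cdh1, whose inner end binds β-catenin, and by tight junctions built from claudins. When cells leave the epiblast through the primitive streak, transcription factors such as Snail and ZEB2 repress epithelial genes, E-cadherin is lost and N-cadherin, the product of Cdh2, is gained. Brachyury (T), Eomes and Mixl1 are transcription factors that mark the streak, and β-catenin also carries the Wnt signal that CHIR mimics.

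Snail and ZEB proteins bind the E-box CAGGTG, read as CACCTG on the other strand, so the windows of 250 bases before the annotated starts were searched for it on both strands. RefSeq entries on GRCm38.p6 matched 7 of the 10 genes with 12 windows. The letters were present before a start of Epcam, Cldn6, Cldn7 and Snai1, in 4 of the 12 windows, and in none of the windows of Vim, Zeb2 or Ctnnb1. Among 32851 windows of all genes 17.2% hold the motif and 2.06% hold it 2 or more times. Epcam, the epithelial adhesion molecule, has 2 copies, which begin 187 and 19 bases before the start. Its whole window, which lies before the annotated gene, is shown because both copies fall in it, and a stretch of 30 bases around each copy is shown for the other genes. All are on the plus strand, from 5′ to 3′, with the E-box in capitals. A match is only a match of letters.
Epcam, chr17:87635729-87635978: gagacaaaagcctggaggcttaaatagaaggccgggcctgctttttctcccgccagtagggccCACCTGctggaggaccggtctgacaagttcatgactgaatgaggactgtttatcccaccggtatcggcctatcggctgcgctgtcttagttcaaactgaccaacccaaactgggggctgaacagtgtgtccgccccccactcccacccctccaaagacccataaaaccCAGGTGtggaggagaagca
Cldn6, chr17:23679260-23679289, E-box from 93 bases before the start: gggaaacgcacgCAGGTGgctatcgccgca
Cldn7, chr11:69965312-69965341, from 97 bases before the second start: tttcttcctcttCACCTGgacgaggagggg
Cldn7, chr11:69965352-69965381, from 57 bases before the second start: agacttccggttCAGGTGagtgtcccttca
Snai1, chr2:167538057-167538086, from 126 bases before the start: gcagcccaggcgCACCTGctccggtctcag
The second start of Cldn7 lies inside the annotated gene, and so do its 2 copies. The Cldn6 copy lies before the RefSeq start but also inside the GENCODE gene, which begins at 23679249. Snai1, the gene of Snail itself, carries 1 copy before its own start.

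The libraries held 8707 cells (WT label) and 10587 cells (dko label) with at least 2500 UMIs, at least 1000 genes and at most 10% mitochondrial UMIs. A UMI is a molecular tag by which copies of 1 molecule are counted once. The median cell had 10571 and 8637 UMIs. In all, 27 kept barcodes were shared by the libraries, against 13.6 expected if barcodes are drawn at random. Sp5 was higher in the library labelled double knockout, at 479 against 109 CPM (levels are in counts-per-million of all UMIs of the summed cells, CPM), and so was Sp8, at 40.1 against 20.8. This goes against the label. A 3′ tag outside a removed stretch would still be counted, so these levels check the genotype only if the tag lies inside it. The libraries are therefore called by their labels throughout. Whether the labels were exchanged was not tested, and an exchange would turn the sign of every ratio between the libraries. Epiblast markers were abundant, with 8 of 9 at 10 CPM or more in both libraries. None of the 8 feeder fibroblast markers reached 10 CPM. Their summed level was 8.06 and 8.10 CPM, with Col3a1 and Lum at 0 in both.

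After 12 hours of CHIR no loss of E-cadherin transcript was detectable in T-high cells. Cdh1, Epcam and Ctnnb1 differed between T-high and T-negative cells by log2 ratios of -0.04 to 0.06 in the 2 libraries, and Cdh2 had no shared direction. Of the 9 genes tested only Cldn7, a tight junction claudin, passed the adjusted p threshold in that comparison, and it was higher. It did not pass with DESeq2 or without thinning. Snai1 was too low for that test. Among the few cells with at least 3 T UMIs, Cdh2 was higher in both libraries, by 0.94 and 0.32. The counting interval of the latter includes 0. A narrower group, the cells rich in Mixl1, had more Snai1 and more Cdh2 in both libraries while Cdh1 was not lower in both. The tests of Snai1 and Cdh2 there depended on the method and on which cells were kept. Snai1 was also higher in Eomes-high cells of both libraries, by log2 ratios of 0.47 and 0.39.

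To sort cells without regard to their depth, each cell was thinned at random to 5000 UMIs, which left out 411 and 617 shallower cells. T-high cells had at least 2 T UMIs among the 5000, T-low cells had 1 and T-negative cells 0. Under the wild type label there were 264 T-high, 923 T-low and 7109 T-negative cells, and under the double knockout label 423, 1466 and 8081. The full counts of each state were then summed per library. Median depth was 11356.5 UMIs in T-high against 10695 in T-negative cells (WT label) and 9161 against 8754 (dko label). The states were compared with edgeR's quasi-likelihood test on the 4 sums with library as a term, which leaves 1 residual degree of freedom. The n is thus 2 libraries, of differing genotype, and cells are not replicates. A gene was called at a Benjamini-Hochberg adjusted p under 0.05 and a log2 difference of at least 0.5. Of 7632 genes tested, 1.30% were called in either direction, 0.603% as higher and 0.694% as lower in T-high cells. Of the 9 members tested, 0 were called. By unadjusted p under 0.05, 3 of the 9 passed, against 15.1% of all genes, and the DESeq2 alternative also called 0. Their median log2 difference was 0.013, against -0.003 for all genes.

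E-cadherin transcript showed no loss that these counts could resolve. Cdh1 (chromosome 8, 106603351 to 106670246, plus strand, GRCm38) stood at 197 CPM in T-negative, 215 in T-low and 198 in T-high cells under the wild type label. The corresponding levels under the double knockout label were 172, 180 and 180 CPM. The T-high over T-negative ratio was 0.01 on the log2 scale (95% counting interval -0.11 to 0.12) and 0.06 (-0.04 to 0.17). The edgeR difference was 0.03 with a standard error of 0.05 and an adjusted p of 0.893. In T-low cells Cdh1 stood higher than in T-negative cells by 0.13 (0.06 to 0.19) and 0.07 (0.01 to 0.13), with an edgeR adjusted p of 0.052.

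N-cadherin transcript differed in sign between the libraries. Cdh2 (chromosome 18, 16588877 to 16809246, minus strand) was at 29.1 CPM in T-negative, 28.1 in T-low and 33.9 in T-high cells under the wild type label. It was at 26.0, 23.0 and 24.2 CPM under the double knockout label. The log2 ratios were 0.22 (-0.08 to 0.50) and -0.10 (-0.41 to 0.19), and both counting intervals include 0. The edgeR difference was 0.04 with a standard error of 0.11 and an adjusted p of 0.927. Among the few cells with at least 3 T UMIs (61 and 111 cells), Cdh2 stood at 55.9 and 32.4 CPM. There the edgeR difference was 0.61 with a standard error of 0.18 and an adjusted p of 0.039. How many of all genes pass in that setting is not given here. Taken singly, the library labelled wild type gave a log2 ratio of 0.94 (0.45 to 1.39) and the library labelled double knockout 0.32 (-0.22 to 0.81).

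**Figure D1:**
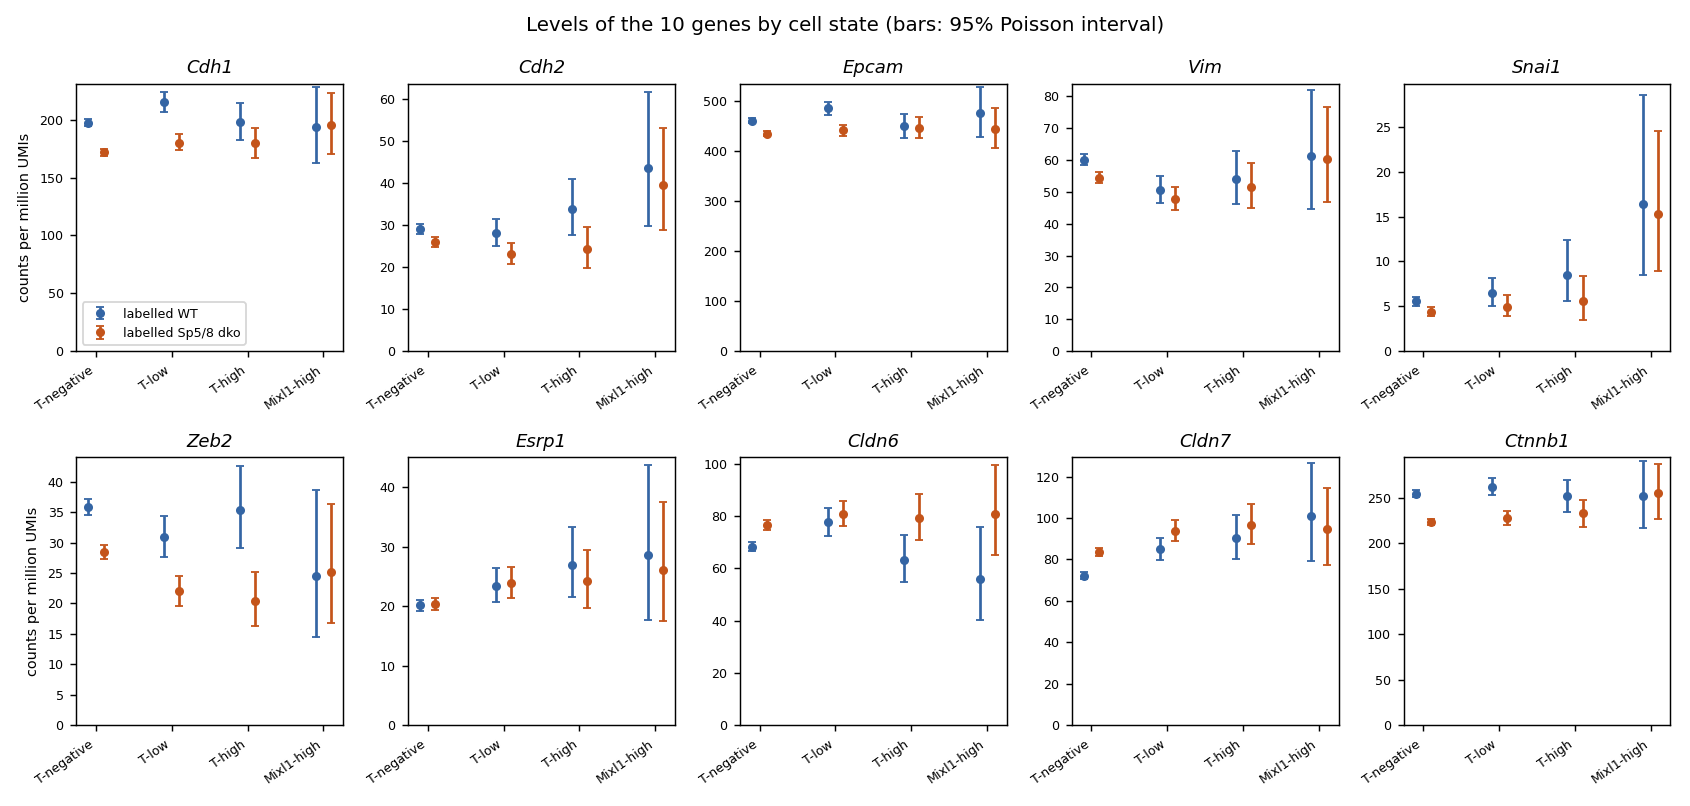
Level of each of the 10 genes (y axis, CPM, starting at 0) in T-negative, T-low, T-high and Mixl1-high cells (x axis) of the library labelled WT (blue) and the library labelled Sp5/8 dko (orange); points are summed counts and bars exact Poisson 95% intervals. The T-high and T-negative intervals of Cdh1, Epcam and Ctnnb1 overlap in both libraries, Cldn7 is higher in T-low and T-high than in T-negative cells of both libraries, and Snai1 and Cdh2 have their highest points in Mixl1-high cells.

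Epcam, Ctnnb1 and Cldn6 did not pass the test either. Epcam (chromosome 17, 87635979 to 87651129) was the most abundant member, at 460 CPM in T-negative and 449 in T-high cells under the wild type label and at 434 and 446 under the double knockout label. Its edgeR difference was -0.01 with a standard error of 0.04. Ctnnb1, the gene of β-catenin (chromosome 9, 120929216 to 120960507), was at 255 and 252 CPM, and at 223 and 233 CPM. Its edgeR difference was 0.01 with a standard error of 0.04. Cldn6, a claudin of early embryonic epithelia (chromosome 17, 23679249 to 23682446), was at 68.4 and 63.3 CPM in T-negative and T-high cells under the wild type label, and at 76.7 and 79.4 CPM under the other. The log2 ratios of Cldn6 were -0.11 (-0.32 to 0.09) and 0.05 (-0.12 to 0.21).

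Cldn7 and Esrp1, both typical of epithelia, were the members with the highest T-high over T-negative differences among the 9 tested. Cldn7 (chromosome 11, 69964779 to 69967885) stood at 72.2 CPM in T-negative, 84.9 in T-low and 90.2 in T-high cells under the wild type label, and at 83.6, 93.9 and 96.8 CPM under the double knockout label. The order of the 3 states was the same in both libraries, though the T-low and T-high intervals overlap in each. The log2 ratio of T-high to T-negative was 0.32 (0.14 to 0.49) and 0.21 (0.06 to 0.36). The edgeR difference was 0.25 with a standard error of 0.07 and an adjusted p of 0.013, a p reached as higher by 2.08% of all genes and as either by 4.27%, and it is under the size for a call. Over 10 alternatives this adjusted p of Cldn7 ran from 0.00596 to 0.615 and stayed under the threshold in 8. It lay above it with DESeq2, at 0.599, and without thinning, at 0.615, a setting with only 55 and 110 T-high cells. Esrp1, a splicing regulator that keeps the epithelial forms of transcripts (chromosome 4, 11331933 to 11386783), was at 20.1 and 26.9 CPM, and at 20.3 and 24.2 CPM. Its edgeR difference was 0.32 with a standard error of 0.11 and an adjusted p of 0.115.

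Beside Cdh2, the mesenchymal members tested were Vim and Zeb2, and neither rose in the main comparison. Vim, the gene of the intermediate filament vimentin (chromosome 2, 13573927 to 13582826), was at 60.0 CPM in T-negative and 54.1 in T-high cells under the wild type label, and at 54.4 and 51.5 CPM under the double knockout label. Its edgeR difference was -0.12 with a standard error of 0.08 and an adjusted p of 0.504. Zeb2, the gene of a repressor of Cdh1 (chromosome 2, 44983632 to 45117395), stood at 35.9 CPM in T-negative and 35.4 in T-high cells under the wild type label. Under the double knockout label it stood at 28.5 and 20.3 CPM. Its log2 ratios were -0.02 (-0.30 to 0.25) and -0.49 (-0.82 to -0.17), and the edgeR difference of -0.25 (standard error 0.11) had an adjusted p of 0.227. Where T-high cells were taken from the full counts without thinning, Vim and Zeb2 had the opposite sign, at 0.07 and 0.13. Whether the Zeb2 ratio differs between the libraries was not tested, since no residual degree of freedom is left. Snai1 (chromosome 2, 167538195 to 167542814) was too low for the test, with 27 and 23 UMIs in all T-high cells. It was at 5.55 and 8.54 CPM, and at 4.42 and 5.57 CPM. The log2 ratios of Snai1 were 0.62 (0.004 to 1.18) and 0.33 (-0.34 to 0.94). With no minimum level its edgeR difference was 0.46 with a standard error of 0.22 and an adjusted p of 0.586.

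The larger group of T-low cells gave closer estimates. Against T-negative cells, 4 members passed the adjusted p threshold in edgeR's test, each below the size for a call, where 5.23% of 7613 genes passed it, 2.26% as higher and 2.97% as lower. Vim fell by 0.22 on the log2 scale (adjusted p = 0.0019) and Zeb2 fell by 0.29 (adjusted p = 0.0012). Cldn7 was higher by 0.19 (adjusted p = 0.00089) and Esrp1 by 0.22 (adjusted p = 0.033). In each of these 4 the 2 libraries had the same sign. The T-low and T-high comparisons share their T-negative cells.

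The balance of the cadherins was read as the share of Cdh2 in the sum of Cdh1 and Cdh2 UMIs. Over all cells it was 12.8% in both libraries. In T-negative cells it was 12.9% (exact binomial 95% interval 12.4 to 13.4) and 13.1% (12.6 to 13.7), and in T-low cells 11.5% and 11.3%. In T-high cells it was 14.6% (12.1 to 17.4) under the wild type label and 11.9% (9.76 to 14.2) under the double knockout label. The T-high interval includes the T-negative share in each library. Cells with at least 3 T UMIs held 40 Cdh2 and 147 Cdh1 UMIs under the wild type label. Under the other they held 34 and 187. In both libraries the share was higher than in T-negative cells, but it is given without an interval. These few UMIs may not resolve it. The T-high cells with no Eomes UMI after thinning stood at 16.2% (12.7 to 20.3) under the wild type label and at 14.0% (9.66 to 19.4) under the other. In full counts these cells held 107 and 97 Eomes UMIs. The T-high cells that were also Eomes-high stood lower, at 12.7% (7.91 to 18.9) and 11.4% (8.45 to 15.0). In each library the intervals of these groups overlap. In Mixl1-high cells the share was 18.4% (12.9 to 25.0) and 16.9% (12.5 to 22.0), against 12.7% and 12.8% in Mixl1-negative cells. These shares compare UMIs of 3′ ends, which need no scaling by gene length, and they cover counting error only.

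**Figure D2:**
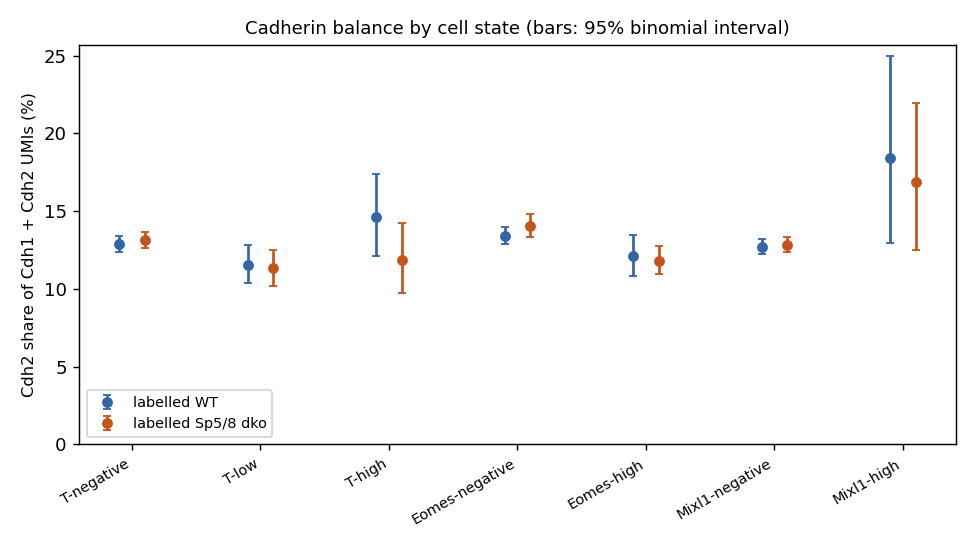
Cdh2 share of Cdh1 plus Cdh2 UMIs (y axis, percent, starting at 0) by cell state (x axis) in the library labelled WT (blue) and the library labelled Sp5/8 dko (orange), with exact binomial 95% intervals. Shares of the plotted T and Eomes states lie between 11.3% and 14.6%, and those of Mixl1-high cells at 18.4% and 16.9%.

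Cdh2 UMIs were found in cells with and without a Cdh1 UMI. At 5000 UMIs a Cdh1 UMI was seen in 60.1% of cells under the wild type label and 55.0% under the double knockout label, and a Cdh2 UMI in 13.8% and 11.6%. Among cells with a Cdh2 UMI, 57.1% also had a Cdh1 UMI, against 60.6% of cells without one, under the wild type label. Under the double knockout label these shares were 50.7% and 55.5%. In T-high cells the order was the other way. There 70.6% of 34 cells with a Cdh2 UMI and 59.1% of 230 without one had a Cdh1 UMI (WT label), and 64.2% of 53 against 54.9% of 370 (dko label), and the binomial intervals of each pair overlap. Epcam was seen in 85.8% and 85.3% of cells, and no cell group here is known to lack it, so no background share could be read. Barcodes with 10 to 100 UMIs, which stand for free RNA, held 39.0 and 28.5 UMIs on average, or 0.369% and 0.330% of the median cell.

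Mixl1-high cells, with at least 2 Mixl1 UMIs of 5000, were compared with Mixl1-negative cells in a contrast added after the first results were seen. They numbered 62 and 113. Snai1, which encodes the repressor Snail, stood at 16.3 CPM against 5.63 under the wild type label and at 15.3 against 4.31 CPM under the double knockout label, from 12 and 17 UMIs. The Poisson intervals of Snai1 in the 2 states do not overlap in either library. The edgeR difference of Snai1 was 1.70 with a standard error of 0.38 and an adjusted p of 0.00054. Snai1 reached the minimum of 10 CPM only through the Mixl1-high sums. With no minimum its edgeR difference was 1.68 with an adjusted p of 0.00042. With DESeq2 the difference was also 1.70, with an adjusted p of 0.062. Cdh2 stood at 43.6 against 28.9 CPM, and at 39.6 against 25.3 CPM. Its edgeR difference was 0.62 with a standard error of 0.19 and an adjusted p of 0.031. That call ended with DESeq2, where the adjusted p of Cdh2 was 0.9995, when likely doublets were removed, where edgeR's adjusted p was 0.054, and with no minimum, where it was 0.096. With at least 3 Mixl1 UMIs the edgeR differences were 2.05 for Snai1 and 0.87 for Cdh2, with adjusted p values of 0.366 and 0.354. Among all genes 1.06% were called as higher in Mixl1-high cells, 0.872% as lower and 1.93% in either direction. Of the 9 members other than Snai1, Cdh2 was called. With no minimum 1 of the 10 members was called, Snai1, against 0.606% of all genes in either direction.

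No epithelial member passed the test with Mixl1. Cdh1 was at 193 CPM in Mixl1-high and 198 in Mixl1-negative cells under the wild type label, and at 195 and 172 CPM under the double knockout label. Its edgeR difference was 0.09 with a standard error of 0.08 and an adjusted p of 0.761. Epcam differed by 0.03 with a standard error of 0.06. The libraries differed in what else these cells held. Mesp1, a mesoderm transcription factor, had 63 UMIs in the 62 Mixl1-high cells labelled wild type (85.8 CPM) and 1 UMI in the 113 labelled double knockout. Fn1, the gene of the matrix protein fibronectin, stood at 142 against 31.9 CPM under the wild type label and at 46.8 against 30.9 CPM under the other. Fn1, Mesp1 and Twist1 are named here after their values were seen.

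Eomes-high cells, also added afterwards, were far more numerous, with 817 and 2362 cells. In edgeR's test Zeb2 fell by 0.51 on the log2 scale with a standard error of 0.06 and an adjusted p of 0.00012. Its level was 25.2 CPM against 38.5 in Eomes-negative cells under the wild type label and 23.7 against 31.8 CPM under the double knockout label. Zeb2 was the only member called, where 0.604% of all genes were called as lower and 0.446% as higher. Cdh1, Epcam, Cldn6 and Cldn7 were higher by 0.15, 0.16, 0.13 and 0.34, and Vim differed by -0.25, all under the size for a call. Their adjusted p values were 0.0013, 8.2e-05, 0.035, 3.4e-05 and 0.0015 by edgeR, a threshold that 12.7% of all genes passed. Cdh2 differed by -0.09 with an adjusted p of 0.338. Snai1 was too low for the test, at 7.24 against 5.23 CPM under the wild type label and 5.48 against 4.19 under the other. The log2 ratios of Snai1 were 0.47 (counting interval 0.08 to 0.84) and 0.39 (0.06 to 0.72). The T, Mixl1 and Eomes groups share cells, so their values are not independent of each other.

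Cells rich in other single genes were compared with all other cells of their library. In cells high in Pou3f1, a gene of the late epiblast and neural primordium (694 and 676 cells), Vim was higher than in the rest by 0.43 and 0.50 on the log2 scale and Zeb2 by 0.28 and 0.49. Cells rich in Zfp42, a marker of naive pluripotency (69 and 65 cells), stood at -0.67 and -0.44 for Cdh2 and at -0.37 and -0.38 for Cldn6, with counting intervals that include 0. Epcam was lower in the Zfp42-high cells, at -0.23 (-0.40 to -0.06) and -0.21 (-0.41 to -0.02). Nanog-high cells had less Vim (-0.25 and -0.36) and more Cldn7 (0.24 and 0.20). In Fgf5-high cells, Esrp1 was higher by 0.31 and 0.34. Irx3, Gsc and Foxa2 marked 50 cells or more in 1 library only. The 116 Irx3-high cells labelled wild type had more Zeb2 (0.65) and less Cldn7 (-0.53), and the 52 Foxa2-high cells labelled double knockout had more Esrp1 (0.93, counting interval 0.25 to 1.53). The 142 Gsc-high cells labelled double knockout had less Vim (-0.44). Mesp1, Tbx6, Cdx2 and Sox1 marked under 50 cells of either library, and so were not used. None of these differences has a test, since cells of 1 library are not replicates.

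**Figure D3:**
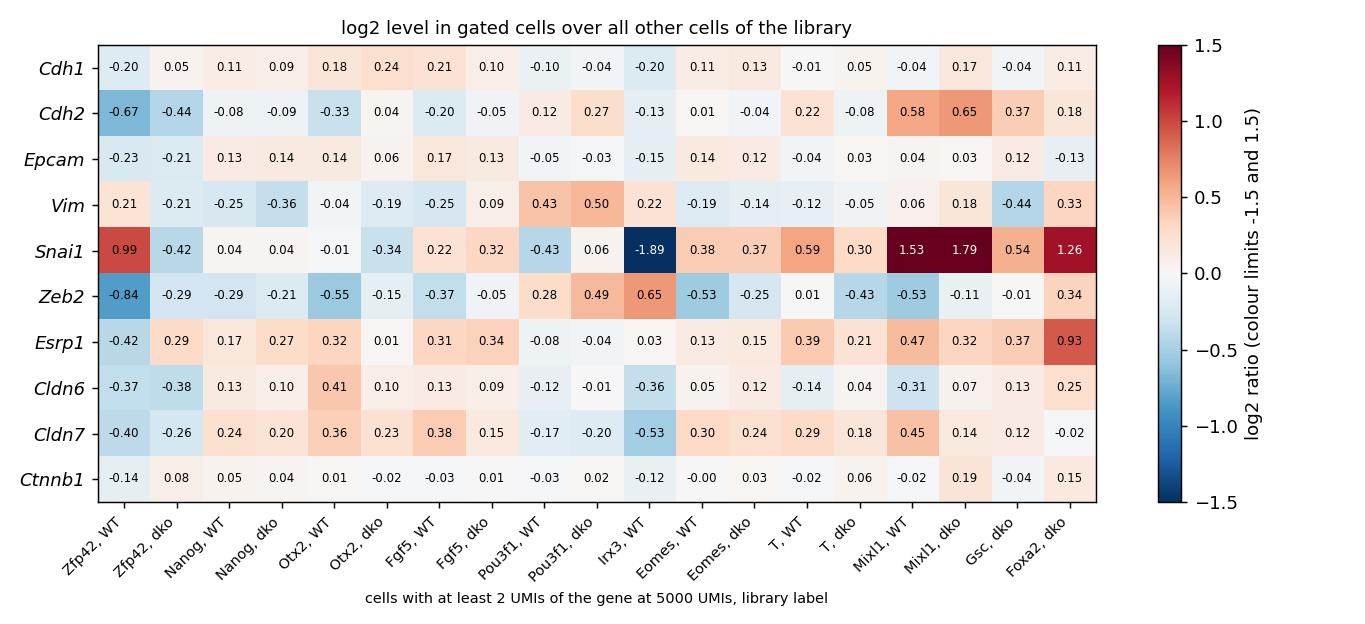
log2 ratio of each member (rows) in cells with at least 2 UMIs of the gene named under each column, over all other cells of the same library (labelled WT or dko); each box prints its ratio and the colour runs from blue (lower) to red (higher). Vim and Zeb2 are higher in Pou3f1-high cells of both libraries, Snai1 and Cdh2 in Mixl1-high cells, and Cdh1 and Epcam stay within 0.25 of 0 in every column.

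The other genes of epithelial to mesenchymal change were read from 6 lists that hold 149 further genes in the files. Of 30 tested genes of junctions and polarity, 0 were called in either direction between T-high and T-negative cells (median log2 difference 0.02). The same count of 0 held for 3 epithelial regulators, 6 transcription factors of the transition, 14 catenins and their partners and 16 genes of filaments and cortex. Other settings gave calls in some of these lists. The epithelial regulator Rbm47 rose with doublets removed and at the 5% mitochondrial limit. The junction gene Dsp rose with no minimum level, and Tcf7l1, listed with the catenin partners, fell without thinning. Of 20 tested genes of mesenchymal adhesion and matrix, 2 rose and 3 fell by edgeR, where 0.603% of all genes rose, 0.694% fell and 1.30% did either. Pcdh8, a protocadherin of paraxial mesoderm, rose by 1.15 (standard error 0.16, adjusted p = 9.41e-08), from 7.96 to 18.7 CPM and from 10.1 to 22.0 CPM. Its T-negative mean lies under the minimum of 10 CPM, which it reached only through the T-high sums, and with no minimum its difference was 1.14 (adjusted p = 9.99e-13). Fn1 rose by 0.57 (standard error 0.10, adjusted p = 2.40e-05), from 31.4 to 58.2 CPM under the wild type label and from 30.9 to 37.0 under the other, log2 ratios of 0.89 and 0.26. Epha4, an ephrin receptor, fell by 0.53, with log2 ratios of -0.18 and -0.99 in the libraries labelled WT and dko. The matrix protease gene Mmp2 fell by 0.51 (-0.81 and -0.32), and the matrix gene Sparc fell by 0.51 (-0.29 and -0.70). DESeq2 called 1 of the 5, Pcdh8, and without cells that had a low share of chromosome 11 UMIs 2 were called, Pcdh8 and Epha4. Library totals without TMM gave 3, Pcdh8, Fn1 and Epha4. With Mixl1 in place of T, edgeR called 4 of 19 tested genes of mesenchymal adhesion and matrix as higher and 1 as lower. Of 6 transcription factors 1 was higher, of 16 genes of filaments and cortex 1 was lower, and the other lists had 0. Among all genes 1.06% were called as higher there and 0.872% as lower. Pcdh8, 1 of those called, stood at 8.44 and 10.8 CPM in Mixl1-negative cells, near the minimum.

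Streak genes did rise with T. Of 7 tested streak genes other than T, 6 were called as higher and 0 as lower, of which Evx1 reached the minimum level only through the T-high sums. With no minimum 8 of 12 were called as higher and 0 as lower, against 0.681% of all genes called in either direction. Mixl1 rose by 2.36, Evx1 by 1.43 and Fgf8 by 1.16 by edgeR (adjusted p = 3.91e-27, 3.30e-11 and 1.02e-26), and Evx1 by 1.42 with no minimum. The other genes of Snail, ZEB and Twist kind were scarce. Snai2 had 0 and 2 UMIs and Zeb1 3 and 10 UMIs in the T-high cells of the 2 libraries, while Twist1 stood at 24.0 and 18.1 CPM. Mmp2, Sparc, Snai2, Zeb1, Rbm47, Dsp and Tcf7l1 are named after their values were seen.

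Between the libraries, 7 members were lower and 2 higher in the library labelled double knockout by their counting intervals. At this depth such intervals lay wholly below 0 for 37.6% of 7607 genes and wholly above it for 25.9%. Epcam, Vim and Esrp1 lay within 1 standard deviation of the median of all genes. Zeb2 was at 35.3 CPM under the wild type label and 27.1 under the other, a log2 ratio of -0.38 (-0.45 to -0.31). Snai1 was at 5.69 and 4.52 CPM, a ratio of -0.33 (-0.52 to -0.15). These 2 were past 0.25 in size, both lower, a size that 4.67% of 7607 genes passed as lower, 3.13% as higher and 7.80% in either direction. Snai1 lies below the 10 CPM that those genes reach. The cadherins stood together, Cdh1 at -0.20 (-0.23 to -0.17) and Cdh2 at -0.20 (-0.28 to -0.12). Ctnnb1 was at -0.19, Vim at -0.14, Epcam at -0.09 and Esrp1 at 0.02 (-0.07 to 0.11). The claudins were on the other side, Cldn6 at 0.16 (0.11 to 0.21) and Cldn7 at 0.21 (0.16 to 0.25). The median of the members was -0.17, against -0.02 over all genes with a standard deviation of 0.16.

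**Figure D4:**
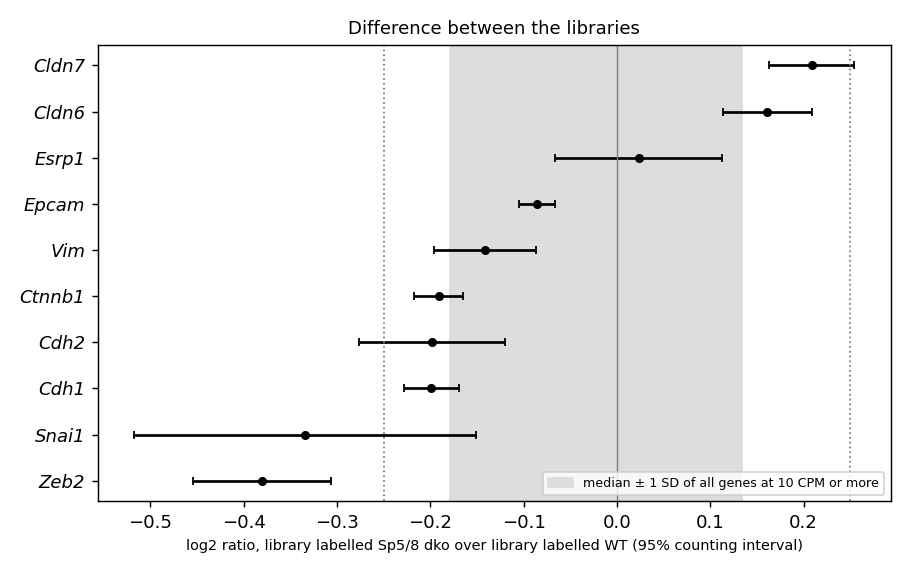
log2 ratio of each member between the library labelled Sp5/8 dko and the library labelled WT over all kept cells (x axis), with 95% counting intervals; the grey band is the median ± 1 standard deviation of all genes at 10 CPM or more and dotted lines stand at 0.25 in both directions. Zeb2 and Snai1 lie past the lower line, and Cldn6 and Cldn7 are the members above the grey band.

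With 1 library per genotype the ratios have no replicate check, and genotype, culture and library cannot be told apart. T itself was higher in the library labelled double knockout, at 50.7 against 38.8 CPM, and Eomes at 186 against 91.2 CPM. Zeb2 differed less between the libraries among Eomes-high cells, at -0.09, and more among T-high cells, at -0.80. In T-high cells Cdh2 was at -0.48, Snai1 at -0.62 and Cldn6 at 0.33, so that 4 members were past 0.25 there, a size that 28.2% of the 7607 genes passed in either direction among these few cells. In T-negative cells 2 members were past it, where 8.07% of genes were.

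A set of cells stood apart by the share of their UMIs from chromosome 11, which was at most 0.8 times the median in 1537 cells (17.7%) labelled wild type and 616 (5.82%) labelled double knockout. The median chromosome 11 gene was at -0.50 and -0.53 there on the log2 scale. Such cells made up 36.0% of T-high and 15.9% of T-negative cells under the wild type label, and 17.3% and 4.58% under the double knockout label. They made up 24.2% of Mixl1-high and 17.9% of Mixl1-negative cells under the wild type label, and 18.6% and 5.33% under the other. Cldn7 lies on chromosome 11 but differed by 0.03 and 0.04 between these cells and the others. Esrp1 was higher in them, by 0.56 and 0.61, and so was Cldn6, by 0.34 and 0.42, and Cdh1, by 0.23 and 0.22. Snai1 was higher in them by 0.36 (0.04 to 0.67) and by 0.98 (0.48 to 1.44). Zeb2 was higher by 0.51 under the wild type label and by 0.03 under the other. Without these cells Cldn7 was higher in T-high cells by 0.28 (edgeR adjusted p = 0.0082). Esrp1 was at 0.30 with an adjusted p of 0.31, and Cdh1, Cdh2 and Ctnnb1 turned to -0.015, -0.0028 and -0.011, none of them called. The Mixl1 contrast of Cdh2 was 0.74 without them (edgeR adjusted p = 0.031). Snai1 fell under the 10 CPM minimum there. With no minimum its difference was 1.49 with an edgeR adjusted p of 0.074, which ends its call, and the Cdh2 difference was 0.71 with an adjusted p of 0.057. Snai1 then stood at 17.4 CPM in Mixl1-high and 5.41 in Mixl1-negative cells under the wild type label, and at 10.8 and 4.18 CPM under the other.

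**Figure D5:**
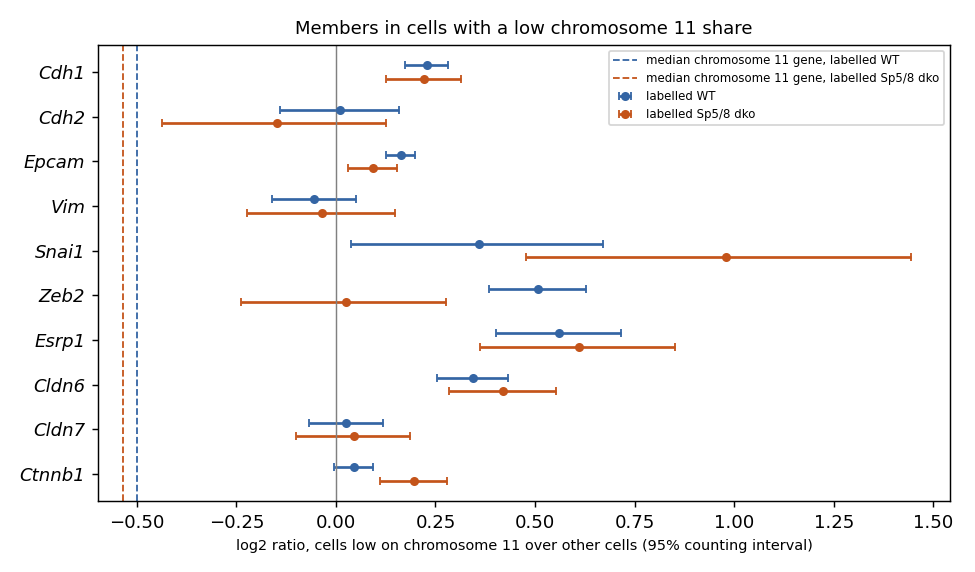
log2 ratio of each member between cells with a low chromosome 11 share and the other cells of the same library (x axis), with 95% counting intervals; dashed lines give the median chromosome 11 gene of each library. Cdh1, Epcam, Snai1, Esrp1 and Cldn6 are higher in these cells of both libraries, and Cldn7, which lies on chromosome 11, is near 0.

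Across single cells the members were weakly correlated. Over the 45 pairs Pearson's r of the logarithm of 1 plus the thinned count ran from -0.08 to 0.14 in the 2 libraries, over 8296 and 9970 cells. Epcam and Cldn7 had the highest r, 0.13 and 0.14, and Cdh2 and Epcam the lowest, -0.08 and -0.04. Among 5244 genes seen in at least 10% of cells, Cdh1 was most like Dnmt3b, a DNA methyltransferase of the epiblast, with r of 0.14 in both libraries, followed by Epcam (0.09 and 0.10) and mt-Co1 (0.08 and 0.08). Cdh2 was most like Tmsb4x, the gene of the actin-binding thymosin β4 (0.10 and 0.11), then Ptn (0.11 and 0.07) and Peg10 (0.06 and 0.07). For Snai1, at so few counts, the 3 nearest genes (Mbip, Ubr2 and Pds5a) reached r of only 0.02 to 0.03. All values of 1 library come from the same cells, and weak values in sparse counts are a description only.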

How the data were processed

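The 10 members, the gene lists and the cell states were chosen with earlier results of these data known. Genes are named if they are members, T, Sp5 or Sp8, gate genes, the 3 most changed called genes of a list, or the 3 genes most like Cdh1, Cdh2 and Snai1, and otherwise as stated. The deposited files hold raw UMI counts per gene and barcode for 2 libraries made with the 10x Genomics 3′ kit, version 3.1, per the labels. The labels' protocols name Cell Ranger 8.0.1, and the submitters' processing notes name STARsolo, STAR 2.7.9a, Seurat 5.1.0 and the mm10 build. The deposited counts list 6794880 barcodes and are not filtered. The labels give 9238 and 11190 captured cells with medians of 5333 and 5398 genes, where the cells kept here have medians of 3275 and 2884 genes. Whether strand was used in counting is not stated in the sources used here, and Cdh2, Zeb2, Esrp1 and Ctnnb1 have antisense genes over them whose reads may not be told apart.

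The kept cells held 97157331 and 97644169 UMIs. Cells were thinned without replacement and full counts were summed per state. Sums were fitted with edgeR 4.0.16 (R 4.3.3, TMM scaling, library plus state) over genes with a mean of at least 10 CPM, and Benjamini-Hochberg adjustment ran over all of them. DESeq2 1.42.0 was an alternative. The fit was tested on simulated data. Levels carry exact Poisson, ratios exact conditional and shares exact binomial 95% intervals, which cover counting error only. Doublets were kept; removing the highest Scrublet-type scores at 0.8% per 1000 cells (606 and 897 cells) was an alternative. Other alternatives changed the T threshold, thinning, the mitochondrial limit, the scaling, the minimum level, and left out each library or the cells low on chromosome 11. Gene positions are from GENCODE M21 on GRCm38 and promoter windows from RefSeq on GRCm38.p6.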

Additional observations from a re-analysis of the deposited data

Results flagged for a closer look

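For 4 members the log2 ratio of T-high to T-negative cells had opposite signs in the 2 libraries, and the difference between the libraries was not tested, because 1 library per genotype leaves no residual degree of freedom. Cdh2 stood at 0.2158 in the library labelled wild type and at -0.1037 in the library labelled double knockout. Epcam stood at -0.0351 and 0.0387, Cldn6 at -0.1125 and 0.0489, and Ctnnb1 at -0.0167 and 0.0618, in the same order. The counting interval of each of these 8 ratios includes 0.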

How the results depend on the processing

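The count of the 10 members called between T-high and T-negative cells was 0, and it became 1 with at least 3 T UMIs (Cdh2), 2 with Mixl1 in place of T (Cdh2 and Snai1, the latter tested only through its Mixl1-high level) and 1 with Eomes. Of all genes 1.30% were called in the main comparison and 1.93% with Mixl1. With Eomes 0.446% were called as higher and 0.604% as lower. The share of all genes with at least 3 T UMIs is not given here, so that call cannot be weighed against it. The count of all genes called was 99, with 49 by DESeq2, 152 with no minimum level, 159 without thinning, and 146 to 227 with 1 library left out, where a gene counts by size alone. Of the other listed genes 5 were called, against 3 without TMM, 1 by DESeq2, 2 without the cells low on chromosome 11 and 5 to 8 with 1 library left out. The count was 7 with no minimum level, 7 with T-negative cells at 0 in full counts and 7 with doublets removed. It was 6 without thinning. The cause of these changes was not tested.

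Of 126 values of the 9 tested members, 22 changed sign, and in the main comparison each member whose sign changed, except Zeb2 and Vim, lay within 0.05 of 0. Without the cells low on chromosome 11, Cdh1 was at -0.015, Cdh2 at -0.0028 and Ctnnb1 at -0.011. Epcam turned to 0.0038 without TMM, 0.045 with at least 3 T UMIs, 0.0042 with T-negative cells at 0 in full counts, 0.034 without thinning and 0.0066 with doublets removed, and to 0.034 with Mixl1 and 0.157 with Eomes in place of T. Without thinning Vim was at 0.067 and Zeb2 at 0.134, and with Mixl1 Vim was at 0.129. Cldn6 turned to 0.026 with at least 3 T UMIs and to 0.129 with Eomes, where Cdh2 was at -0.091. Ctnnb1 turned to -0.0020 with no minimum level and -0.0047 at the 5% mitochondrial limit. With 1 library left out Cdh2 ran from -0.104 to 0.216, Epcam from -0.035 to 0.039, Cldn6 from -0.112 to 0.049 and Ctnnb1 from -0.017 to 0.062. The alternatives with Mixl1 or Eomes, the chromosome 6 or 11 filter of the library ratios and all those of the Mixl1 contrast were chosen after seeing the data.

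In the Mixl1 contrast Cdh2 was no longer called with DESeq2 (0.63), with doublets removed (0.589), with at least 3 Mixl1 UMIs (0.87), with no minimum level (0.603) and with none and the cells low on chromosome 11 left out (0.711), nor Snai1 with DESeq2 (1.70), at least 3 Mixl1 UMIs (2.05) and the last of these (1.49). Cdh1 there turned to -0.030 with at least 3 Mixl1 UMIs and ran from -0.036 to 0.184 with 1 library left out. The Cdh2 share in T-high cells was 21.4% and 15.4% with at least 3 T UMIs and 21.3% and 14.8% without thinning, in the WT and dko labels. The number of members past 0.25 between the libraries was 4 among T-high and 1 among Eomes-high cells, and 2 in the other 8 settings. Of 100 library ratios of single members, 77 moved by less than the counting interval, 23 moved further and 0 reversed. TMM shifts all library ratios by 0.0288. The main fit pairs the states through its library term. Between the genotypes no pairing was possible, because each has 1 library. Depth limits Snai1 above all.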
